A study of Canis lupus familiaris with 4 samples.

Results

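The genes of the unfolded protein response and of the response to amino acid shortage were followed as 40 named members across 4 canine glioblastoma cell lines. They were chosen by name and role, but with earlier results of these data known. Of the 40, 38 had a probe set with their symbol alone, out of 15115 genes named on the array. No probe set was named CRELD2 or CEBPB in the annotation used here. J3T-1 and J3T-2 are subclones of the canine glioblastoma line J3T, labelled as high and low in annexin A2 (ANXA2), a membrane-binding protein. J3T-1shA is J3T-1 with ANXA2 knocked down and J3T-2A is J3T-2 with ANXA2 overexpressed, and all 4 were grown in the same serum-containing medium without added stress. Total RNA of each line went on 1 Affymetrix canine array, so no value has a replicate, no ratio carries a test, and precision is limited by the number of arrays. Each line is labelled a subclone. The vector and promoter used in the modified lines are not given in the sources used here, and no vector control line was analysed here. The comparisons were the overexpression pair (J3T-2A over J3T-2), the knockdown pair (the unmodified J3T-1 over J3T-1shA) and, as a description of the starting lines, the parental pair (J3T-1 over J3T-2).

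When unfolded proteins gather in the endoplasmic reticulum (ER), sensors in its membrane respond. ERN1 (IRE1) splices the messenger RNA of XBP1, ATF6 is cut to free a transcription factor, and EIF2AK3 (PERK) slows translation while that of ATF4 rises. XBP1 and ATF6 induce chaperones and the ER-associated degradation machinery. ATF4 induces amino acid transporters, enzymes of amino acid synthesis and stress effectors, and it also responds to amino acid shortage through another kinase, EIF2AK4 (GCN2). Much of this control lies in splicing, cleavage and translation, which array signals do not measure. ER chaperones such as BiP are known to be abundant in glioblastoma.

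Signals are linear MAS 5.0 intensities, and the brightest probe set stood for its gene. A gene was called measured in a pair of arrays when its higher signal reached 250, which 35.2% to 35.9% of probe sets did per array. Ratios were taken between arrays and never between genes. Summed signals of marker lists add genes at their own brightness, so the brightest marker weighs most. For the same gene, the log2 ratios of its 2 brightest measured probe sets differed with an SD of 0.29 in the overexpression pair (3716 genes), 0.37 in the knockdown pair (3760 genes) and 0.37 in the parental pair (3759 genes). This SD covers measurement within 1 RNA sample and not the spread between cultures.

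The signal of ANXA2 did not separate the arrays labelled high from those labelled low. It was between 28656 and 30102.5 on all 4 arrays in the brightest probe set, with a log2 ratio of -0.07 in the knockdown pair and of -0.07 in the overexpression pair. The second probe set, with 24128 on J3T-1, 25725 on J3T-1shA, 30311 on J3T-2 and 35651 on J3T-2A, gave -0.09 and 0.23, and put both arrays of the J3T-1 line below both of the J3T-2 line. ANXA2 therefore does not check the labels, and every line name below stands for the array labelled so. Of the glial markers, SOX2 (936.8 to 1662.5), VIM, CD44 and SLC1A3 were over the limit on all arrays, whereas the astrocyte marker GFAP (8.2 to 21.6), S100B and AQP4 were far under it. Of the 10 glioma and astrocyte markers listed, 9 had a probe set and 5 reached the limit on any array. The fifth was NES, which reached it on J3T-1shA alone. Across other cell types, 1 of 5 endothelial, 1 of 6 microglial, 4 of 6 fibroblast and pericyte, 2 of 4 neuronal and 1 of 4 epithelial markers reached the limit on any array. In such bulk samples, fewer cells of a type and less RNA per cell cannot be told apart.

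Of the 38 members, 25 reached the limit on all 4 arrays, 5 on 1 to 3 arrays and 8 on none. The 8 were the sensor ERN1, the ER membrane protein WFS1, the stress effectors ATF3, TRIB3 and SESN2, and the transporter genes SLC7A11, SLC7A5 and SLC3A2, with signals of 40.5 to 222.6. No amino acid transporter of the list was therefore measured, and what follows on amino acid metabolism concerns the enzymes. Array J3T-1 had the lowest signal for 17 of the 30 measured members (56.7%, against 26% of the 7241 genes that reached the limit on any array). Among the 17, DDIT3, EIF2AK3, CHAC1 and EDEM1 were under the limit on J3T-1 and counted only through brighter arrays. Array J3T-2 had the highest signal for 14 of the 30 (46.7%, against 26.2%), and the lowest for 7 (23.3%, against 27.7%). The 7 were XBP1, the 5 amino acid enzymes and ATF6, which was under the limit on J3T-2.

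**Figure D1:**
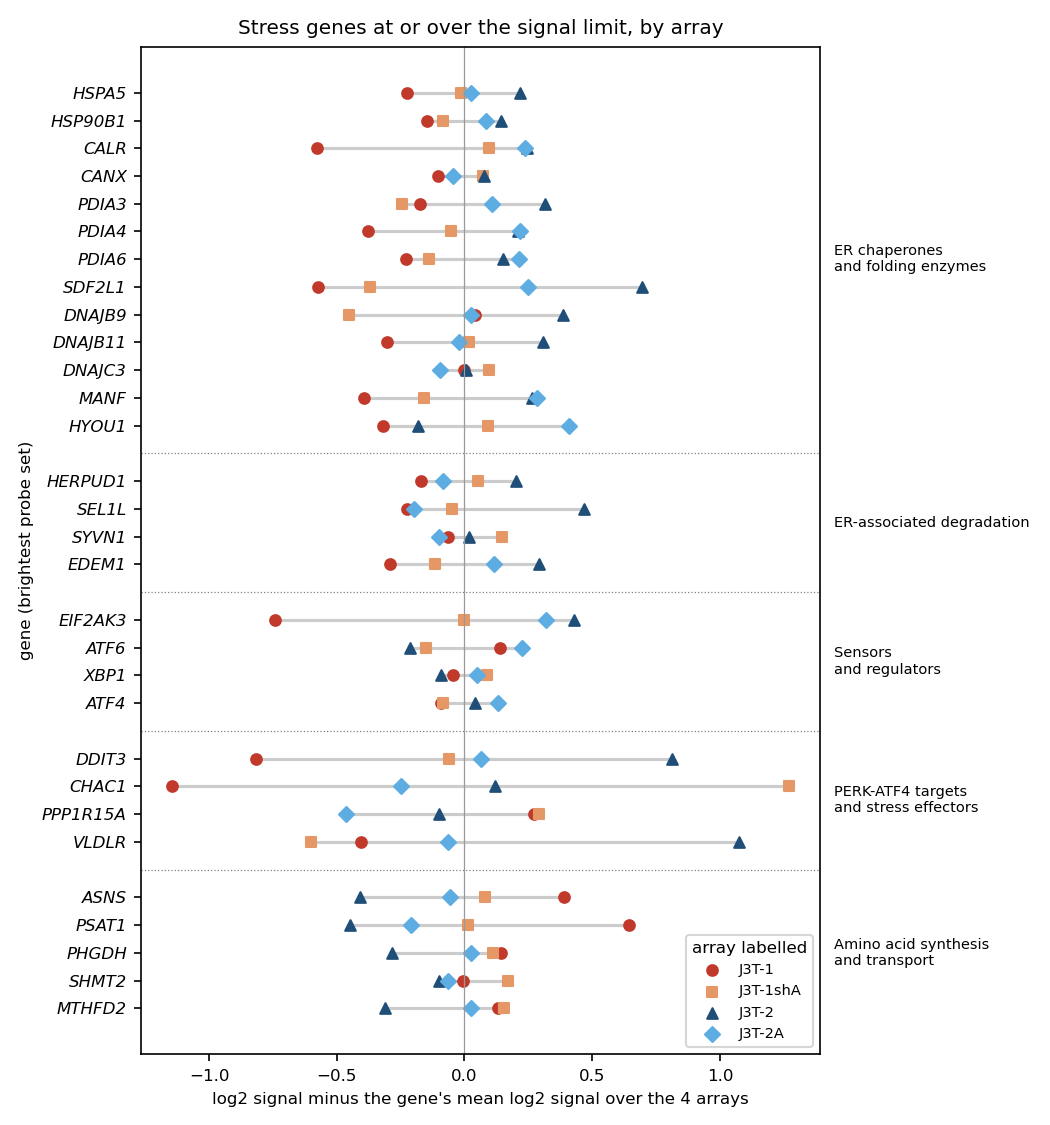
Log2 signal of each of the 30 members that reached the limit on any array, minus the gene's own mean over the 4 arrays (x axis), by gene and list (y axis), with 1 point per array. Array J3T-1 (red circles) lies lowest for 10 of the 13 chaperone and folding genes, and array J3T-2 (dark blue triangles) lies lowest for all 5 amino acid synthesis genes.

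The ER chaperones and folding enzymes were bright, and their signals were lower on array J3T-1 than on array J3T-2 for all 13 measured genes, where 47.5% of all measured genes had a ratio under 1. HSPA5, the ER chaperone BiP, had a signal of 20821 on J3T-1, 24099.9 on J3T-1shA, 28296 on J3T-2 and 24776 on J3T-2A. Its lowest value was that of J3T-1 and its highest that of J3T-2, a log2 ratio of -0.44. The second HSPA5 probe set, with signals of 11929, 17048, 20096 and 17135 in the same order, gave -0.75. The first lies nearer the top of the scale, where the highest signals were 44435 to 46646, and compression of such bright signals was not tested.

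SDF2L1, a partner of BiP in protein folding, had the widest spread of the chaperone list. Its signal was 1228 on J3T-1, 1414 on J3T-1shA, 2961 on J3T-2 and 2169.5 on J3T-2A. Both arrays of the J3T-1 line lay below both of the J3T-2 line, and J3T-1 was 2.41-fold lower than J3T-2. The 2 other SDF2L1 probe sets gave log2 ratios of -1.30 and -1.61 against -1.27 for the brightest. CALR (calreticulin), a lectin chaperone for glycoproteins, had 4238 on J3T-1 against 6740 on J3T-1shA, 7481 on J3T-2 and 7439.5 on J3T-2A. Its 4 probe sets all gave a lower J3T-1 than J3T-2 signal, with log2 ratios from -1.09 to -0.24. Against J3T-1shA, J3T-1 had log2 ratios of -0.67 and -0.69 in 2 of them and -0.19 in another, and was level in the dimmest (504.2 and 506.4). MANF, a small secreted ER protein, had 8549 on J3T-1 and 10058 on J3T-1shA, below the 13469 on J3T-2 and 13669 on J3T-2A. The disulfide isomerase gene PDIA6 showed the same order of the lines, at 7640.5, 8119.7, 9939.5 and 10374.

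For 8 of the 13 chaperone genes, HSPA5, HSP90B1, CALR, PDIA3, PDIA4, PDIA6, SDF2L1 and MANF, both arrays of the J3T-1 line were below both of the J3T-2 line (61.5%, against 16% of all genes that reached the limit). Except for SDF2L1 and MANF, the closest arrays of the lines differed by less than the SD between probe sets for that pair of arrays. For HSPA5 the log2 ratio of J3T-2A to J3T-1shA was 0.04, and 0.01 by its second probe set, against an SD of 0.33. For no chaperone gene was the order reversed, against 20.4% of all genes. The remaining 5 overlapped between the lines. DNAJC3, an inhibitor of eIF2-alpha kinases and BiP co-chaperone, was nearly level over the arrays, between 1480 and 1690, a 1.14-fold range.

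In the parental pair, 1 chaperone gene (SDF2L1) was over 2-fold lower and none was over 2-fold higher. The background was 4.05% of 6967 measured genes over 2-fold lower and 2.94% over 2-fold higher. Most differences were small, and 8 of the 13 exceeded the SD between probe sets, all of them lower (61.5%, against 20.5% of all genes). The median log2 ratio of the list was -0.44, against 0.03 for all measured genes, with a range from -1.27 to -0.01. Across all 34 measured probe sets of these genes 33 had a ratio under 1, and the exception was the dimmest PDIA4 probe set, at 0.09. After median centring of the arrays the count of genes lower on J3T-1 was 12 of 13. Of the 4 neuronal markers, RBFOX3 and SYP were under the limit on all arrays, and the summed signal of the list was 3450.3 on J3T-1 and 16129 on J3T-2. The neurofilament gene NEFL had 2561 and 15463 of it, and the neuronal tubulin gene TUBB3 had 725.4 and 552.7. Single markers of other cell types also differed between these arrays, with 37 on J3T-1 and 773.2 on J3T-2 for the endothelial PECAM1, 435.4 and 1076 for the epithelial KRT8, 387.9 and 1292 for DCN of fibroblasts, 562.2 and 24.9 for the contractile ACTA2, and 661.5 and 317.4 for the microglial C1QA. Their part in the chaperone differences of the parental pair was not tested.

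**Figure D2:**
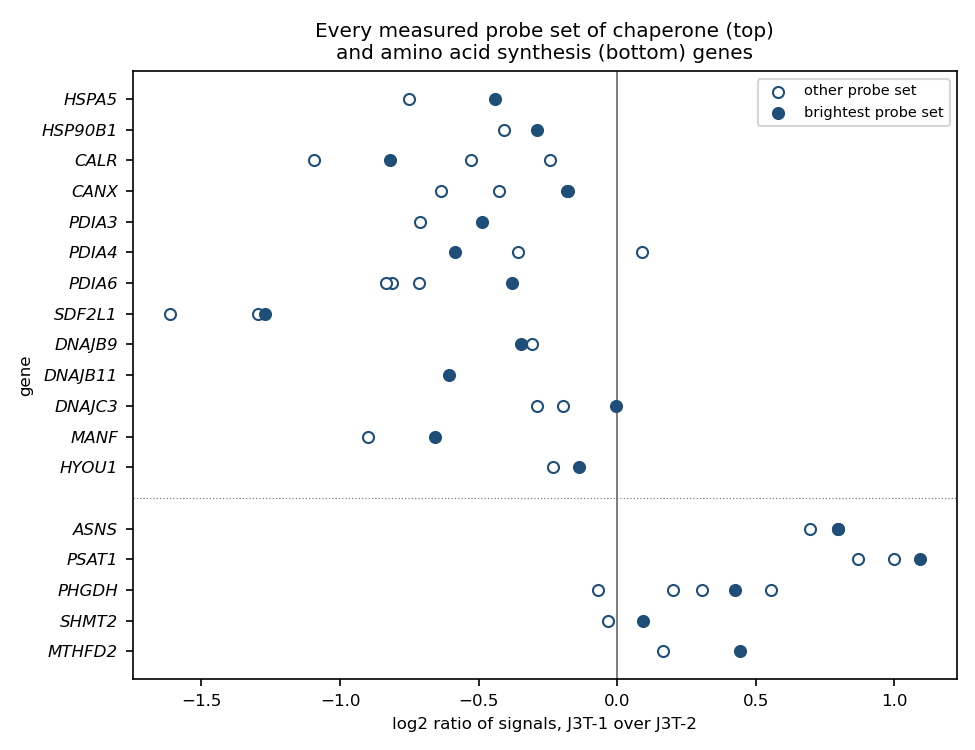
Log2 ratio in the parental pair of J3T-1 to J3T-2 (x axis) for every measured probe set of the chaperone and folding genes (above the dotted line) and the amino acid synthesis genes (below it), with the brightest probe set filled; where points coincide, as for CANX and ASNS, the filled one covers the other. Of 34 chaperone probe sets 33 lie left of 0, and of 15 amino acid synthesis probe sets 13 lie right of it.

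The chaperone signals were also lower on J3T-1 than on J3T-1shA for 11 of 13 genes (47.1% of all measured genes had a ratio under 1), by less. The median log2 ratio was -0.20, against 0.03 for all measured genes, with a range from -0.67 for CALR to 0.49 for DNAJB9. Of the 13 genes 3 exceeded the SD between probe sets, 2 lower and 1 higher (23.1%, against 40.8% of all measured genes). No chaperone gene was over 2-fold different, against 3.8% of 6944 measured genes over 2-fold higher and 4.26% over 2-fold lower. DNAJB9, a co-chaperone that is a direct target of spliced XBP1, had 2081 on J3T-1, 1480 on J3T-1shA, 2643.5 on J3T-2 and 2061 on J3T-2A, and so was lowest on J3T-1shA. In the same pair of arrays, the summed signal of the 6 fibroblast and pericyte markers was 24744 on J3T-1 and 62918 on J3T-1shA. Of these, COL1A1 had 2014 and 16842 and ACTA2 had 562.2 and 13625, while the pericyte markers PDGFRB and RGS5 were under the limit on all arrays. Their part in the chaperone differences was not tested.

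In the overexpression pair the chaperone list was close to level. Of the 13 genes 4 were higher and 9 lower (50.6% of all measured genes were lower), with a median log2 ratio of -0.10, against 0.00 for all measured genes, and none was over 2-fold different. The background was 1.69% of 6860 measured genes over 2-fold higher and 2.1% over 2-fold lower. The largest differences were those of HYOU1, a nucleotide exchange factor of BiP (log2 ratio 0.59, and 0.19 by its second probe set), and SDF2L1 (-0.45). After median centring the split was 6 higher and 7 lower.

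The 4 genes of ER-associated degradation, which returns misfolded proteins to the cytosol for destruction, had signals in the same direction as the chaperone medians in all 3 comparisons. SEL1L, the adaptor of the ubiquitin ligase SYVN1, had 2616 on J3T-1, 2951 on J3T-1shA, 4225.5 on J3T-2 and 2665 on J3T-2A. Array J3T-2 was highest and the other three lay close together. Its log2 ratio was -0.66 in the overexpression pair, and -0.53 and -0.87 by its other probe sets. The list had median log2 ratios of -0.23 in the overexpression pair, -0.19 in the knockdown pair and -0.48 in the parental pair. None of HERPUD1, SEL1L, SYVN1 and EDEM1 was over 2-fold different, and their brightest probe sets all had ratios under 1 in each comparison. In the knockdown pair none of the 4 exceeded the SD between probe sets. EDEM1 (237.8 to 355.7) and SYVN1 (350.1 to 415.9) were dim.

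Of the sensors and their transcription factors, the transcripts of ATF4 and XBP1 were nearly level. ATF4 had signals of 15046 on J3T-1, 15131 on J3T-1shA, 16497.5 on J3T-2 and 17525 on J3T-2A, a 1.16-fold range. XBP1 had 4188, 4586, 4058.5 and 4467.5, a 1.13-fold range, and its probe sets were not resolved into spliced and unspliced forms here. In both genes the differences were within the SD between probe sets in all 3 comparisons.

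EIF2AK3, which encodes PERK, was the sensor with the widest spread among those measured. Its signal was 173.3 on J3T-1, under the limit, and 289.6 on J3T-1shA, 389.8 on J3T-2 and 361.4 on J3T-2A. It was 2.25-fold lower on J3T-1 than on J3T-2, with a log2 ratio of -0.74 in the knockdown pair and -0.11 in the overexpression pair. Only 1 probe set reads it, so it has no check. ATF6, also read by 1 dim probe set, had 272.9 on J3T-1 and 289.8 on J3T-2A, over the limit, and 223.3 on J3T-1shA and 214.0 on J3T-2, under it. Both arrays labelled high in ANXA2 were above both others for ATF6 alone (1 of 30 measured members, or 3.33%, against 14.1% of all genes), and these were also the arrays through which it passed the limit, so nothing is read from its order. The opposite order, with both below, was seen in 7 members, CANX, DNAJB11, DNAJC3, HERPUD1, SEL1L, SYVN1 and CHAC1 (23.3%, against 12.8%), of which CHAC1 passed the limit only through J3T-1shA. These counts rest on the brightest probe sets. In the second probe set of CANX, DNAJC3, HERPUD1, SEL1L, SYVN1 and CHAC1 the order did not hold, and DNAJB11 has only 1 probe set. That second probe set of SYVN1 was under the limit on all arrays. In the third probe sets of CANX, DNAJC3 and SEL1L, all measured, the order did hold. In the fourth of CANX it did not, and the fourth of DNAJC3 was far under the limit. ERN1 was under the limit throughout, at 93.2 on J3T-1, 40.5 on J3T-1shA, 111.1 on J3T-2 and 92.5 on J3T-2A.

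The stress effectors downstream of PERK and ATF4 held the largest ratios among the members, on mostly dim probe sets whose ratios are uncertain in size. CHAC1, an enzyme that breaks down glutathione, had a signal of 78.1 on J3T-1, 416.4 on J3T-1shA, 187.7 on J3T-2 and 145.3 on J3T-2A. Only array J3T-1shA reached the limit. The ratio of its signal to that of J3T-1 was 5.33, against a J3T-1 signal so far under the limit that its size is uncertain. A second CHAC1 probe set had 147.2, 397.5, 50.8 and 94.2, again highest on J3T-1shA, with a log2 ratio of -1.43 against -2.41 for the first. The probe sets gave opposite orders for the other arrays, at log2 ratios of -1.26 and 1.53 in the parental pair, all under the limit there.

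DDIT3, the transcription factor CHOP that promotes cell death under lasting ER stress, had 170.8 on J3T-1, 288.6 on J3T-1shA, 527.8 on J3T-2 and 314.5 on J3T-2A. It was highest on J3T-2 and lowest on J3T-1, which was 3.09-fold lower than J3T-2 and under the limit. Its log2 ratios were -0.75 in the overexpression pair and -0.76 in the knockdown pair, both past the SD between probe sets and within 2-fold, and 1 probe set reads it. VLDLR, a lipoprotein receptor gene known to respond to PERK and ATF4, had 313.5 on J3T-1, 273.5 on J3T-1shA, 873.8 on J3T-2 and 396.9 on J3T-2A. Array J3T-2 stood above the other three. It was the only member over 2-fold different in the overexpression pair, at 2.20-fold lower, and was 2.79-fold lower on J3T-1 than on J3T-2. With the median of its probe sets or a pseudocount of 80 it was within 2-fold in the overexpression pair, and 0 members passed there. Its 2 other probe sets, under the limit on all arrays, gave log2 ratios of -0.90 and -0.76 in the first of these comparisons and -1.17 and -1.74 in the second.

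PPP1R15A (GADD34), which directs the removal of the phosphate that PERK puts on eIF2-alpha, did not follow DDIT3. Its brightest probe set had 876.4 on J3T-1, 890.2 on J3T-1shA, 677.6 on J3T-2 and 526.8 on J3T-2A, highest in the J3T-1 line. Its second probe set put J3T-1shA lowest, at 264.5 against 387.8 on J3T-1 and 363.6 on J3T-2, so the order of the arrays depended on the probe set. The list had a median log2 ratio of -0.75 in the overexpression pair (3 measured genes), -0.39 in the knockdown pair (4 genes) and -1.48 in the parental pair (3 genes). Genes that passed the limit only through their brighter array were thereby picked for a difference, which holds in at least 1 comparison for DDIT3, EIF2AK3, CHAC1, ATF6 and EDEM1 above, and without a limit on signal the last median was 0.26 over 7 genes.

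The enzymes of amino acid synthesis ran the other way from the chaperones. All 5 measured genes had higher signals on both arrays of the J3T-1 line than on both of the J3T-2 line (100%, against 20.4% of all genes). When the median over all probe sets stood for a gene, this held for 2 of the 5. For each of the 5 genes the closest arrays of the lines differed by less than the SD between probe sets for that pair of arrays. The widest gap was that of PSAT1, at a log2 ratio of -0.22 for J3T-2A over J3T-1shA, against an SD of 0.33. ASNS, asparagine synthetase and a classical ATF4 target, had 4268 on J3T-1, 3445 on J3T-1shA, 2455 on J3T-2 and 3131 on J3T-2A. It was highest on J3T-1 and lowest on J3T-2, a 1.74-fold difference, and its 3 probe sets gave log2 ratios of 0.80, 0.80 and 0.70.

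PSAT1, which with PHGDH and PSPH makes serine from a glycolysis intermediate, had 7015 on J3T-1, 4529 on J3T-1shA, 3292.5 on J3T-2 and 3887 on J3T-2A. It was the only member over 2-fold higher on J3T-1 than on J3T-2, at 2.13-fold, and its other probe sets had 1587 on J3T-1 against 794.6 on J3T-2 and 1282 against 701, both within 2-fold. With the median over all probe sets, 0 members were over 2-fold higher in this pair. PHGDH, the first enzyme of the same path, had 5167 on J3T-1, 5057 on J3T-1shA, 3845 on J3T-2 and 4756 on J3T-2A. Its brightest probe set gave a log2 ratio of 0.43 in the parental pair, and its 4 others ranged from -0.07 to 0.56. MTHFD2 and SHMT2, mitochondrial enzymes of folate metabolism, had log2 ratios of 0.44 and 0.09.

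The median log2 ratio of these 5 genes was 0.44 in the parental pair, where 4 of the 5 exceeded the SD between probe sets and all 4 were higher on J3T-1 (20% of all measured genes were). It was 0.31 in the overexpression pair, with all 5 genes higher on J3T-2A, 3 of them past the SD (15.4% of all measured genes were) and none over 2-fold. In the knockdown pair the median was 0.03, with 3 genes higher and 2 lower, and only PSAT1 (0.63) exceeded the SD, where 20.7% of all measured genes were past it and higher. The other PSAT1 probe sets gave 0.09 and 0.30 in this pair, within the SD. Over all measured probe sets of these genes, 14 of 15 were higher on J3T-2A than on J3T-2, 15 of 15 were higher on J3T-1shA than on J3T-2 (51% of all measured genes were), and 9 of 15 were higher on J3T-1 than on J3T-1shA. Array J3T-2 was thus the lowest for each of the 5 genes in its brightest probe set.

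**Figure D3:**
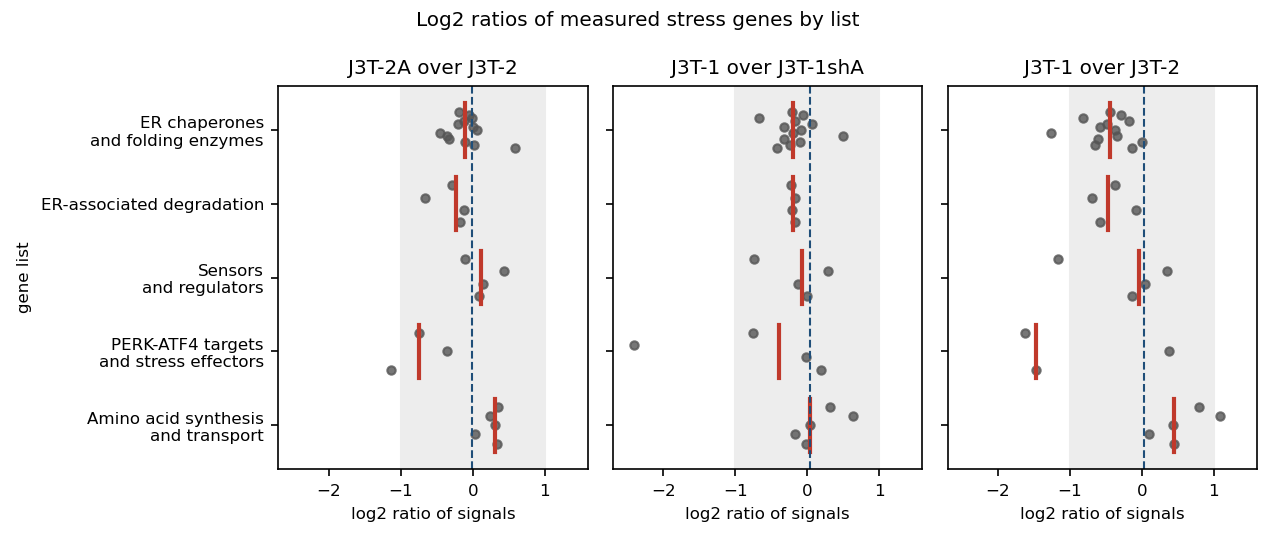
Log2 ratio of signals (x axis) for each measured member (grey points) by list (y axis) in 3 comparisons, with the list median (red bar), the median of all measured genes (dashed blue line) and the range within 2-fold (grey band). In the panel of J3T-1 and J3T-2 the chaperone median lies at -0.44 and the amino acid synthesis median at 0.44; this panel shares an array with each of the others.

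Over all members, 0 were over 2-fold higher and 1 was over 2-fold lower of 29 measured in the overexpression pair, beside 1.69% and 2.1% of all measured genes. The counts were 0 and 1 of 30 in the knockdown pair, beside 3.8% and 4.26%, and 1 and 4 of 29 in the parental pair, beside 2.94% and 4.05%. The 4 lower genes in the last were DDIT3, EIF2AK3, SDF2L1 and VLDLR, and of these DDIT3 and EIF2AK3 passed the limit in that pair only through J3T-2. The parental pair shares an array with each of the others, so the 3 are not independent views of the lines. Members past the SD between probe sets numbered 12 of 29 (41.4%, against 34.4% of all measured genes), 7 of 30 (23.3%, against 40.8%) and 19 of 29 (65.5%, against 40.5%) in the same order.

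A further 117 genes of the same pathways, listed by function, included 106 with a probe set and 87 that reached the limit on any array. They were mostly within 2-fold. In the overexpression pair, 1 of 86 measured genes was over 2-fold higher and 1 was over 2-fold lower, beside 1.69% and 2.1% of all measured genes. EIF2AK1, the haem-regulated kinase that also phosphorylates eIF2-alpha, had 902.4 on J3T-2A and 418.3 on J3T-2, and KLHL24 was lower with the J3T-2A array under the limit. In the knockdown pair 2 of 85 passed 2-fold as higher and 1 as lower, beside 3.8% and 4.26%. DDIT4, an inhibitor of mTORC1 signalling, had 622.7 on J3T-1 and 258.7 on J3T-1shA, while NUPR1 and the lower gene FKBP14 each had an array under the limit.

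In the parental pair 1 of 85 passed 2-fold as higher and 2 as lower, beside 2.94% and 4.05%. The higher gene was PSPH, the last enzyme of serine synthesis, with 4958 on J3T-1, 3064 on J3T-1shA, 2422 on J3T-2 and 3030.4 on J3T-2A, the same order of arrays as ASNS and PSAT1. The amino acid transporter gene SLC38A2 was lower, at 316.4 against 694.3, and KLHL24 was the other.

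The other ER folding and glycan genes had 14 of 17 ratios under 1 in the parental pair, with a median log2 ratio of -0.11, and 12 of 17 after median centring. Other genes of ER-associated degradation and protein translocation had 17 of 27 under 1 in that pair and a median of -0.16. In the overexpression pair 21 of these 27 were under 1 (median -0.13, and 50.6% of all measured genes were under 1), and 17 of 27 after median centring. In the knockdown pair 15 of 27 were under 1 (median -0.04, and 47.1% of all measured genes). Aminoacyl-tRNA synthetases and the tRNA exporter XPOT, several of them known ATF4 targets, had 11 of 12 ratios over 1 in the overexpression pair, with a median of 0.21. The same list had 9 of 12 over 1 in the parental pair (median 0.18) and 3 of 12 in the knockdown pair (median -0.07). Of all measured genes, 49.4%, 52.5% and 52.9% had ratios over 1 in these comparisons, in the same order. Other amino acid enzymes and transporters, 13 measured in each pair, had medians of 0.24 (overexpression), 0.04 (parental) and 0.06 (knockdown). The other stress signalling genes had medians of 0.00 (overexpression, 16 genes), 0.10 (parental, 16 genes) and -0.06 (knockdown, 15 genes).

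**Figure D4:**
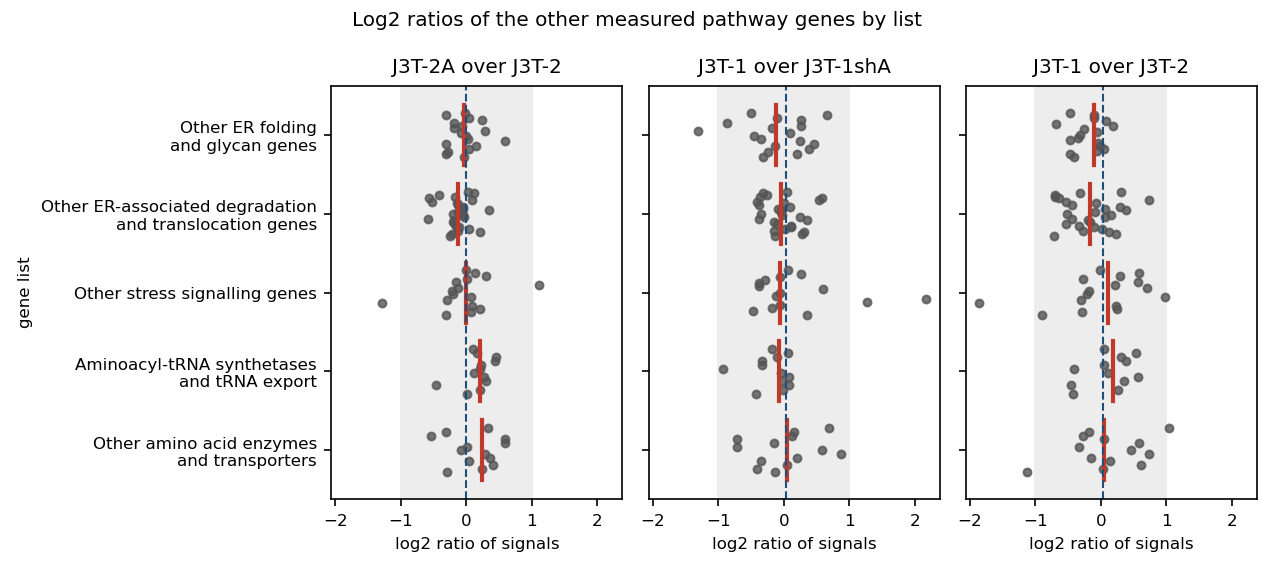
Log2 ratio of signals (x axis) for the other measured genes of the pathways (grey points) by list (y axis) in 3 comparisons, with the list median (red bar), the median of all measured genes (dashed blue line) and the range within 2-fold (grey band). Aminoacyl-tRNA synthetase genes lie right of 0 in 11 of 12 cases in the panel of J3T-2A and J3T-2, and most other genes lie within 2-fold.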

How the data were processed

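The authors hybridized RNA of each of 4 lines to 1 GeneChip Canine Genome 2.0 array and computed each probe set's intensity with MAS 5.0 at default settings. They scaled each array globally to a trimmed mean, stated as 100. The deposited intensity values had trimmed means of 495.8 to 496.0 (lowest and highest 2% left out), about 5 times that, so a limit of 50 on the stated scale became 250. The deposited table held no detection calls. No genome build was named, and no positions are given.

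Of 42924 probe sets, 29254 had 1 gene symbol, 439 had several and 13231 were not listed in the array annotation. Looking up 27680 by Entrez identifier changed 0 symbols. The brightest probe set by mean signal stood for its gene. Ratios of 2 arrays were taken without pseudocount, with Python 3.11.15, pandas 2.3.3 and numpy 2.4.6. The ratio script was tested on simulated data.

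Genes with values on all arrays were members over 2-fold in a comparison, the sensors and main transcription factors, HSPA5, DDIT3 and ASNS, and members whose probe sets disagreed (PPP1R15A). Other pathway genes were named if over 2-fold with both arrays at the limit. Others named, such as CALR, MANF, SEL1L, PHGDH, KLHL24, NUPR1 and FKBP14, were chosen after their values were seen. The members, lists and alternatives were chosen with earlier results of these data known. Alternatives were a limit of 500 or none, the median of the probe sets, quantile normalization, median centring, a pseudocount of 80 and a threshold of 1.5-fold.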

Additional observations from a re-analysis of the deposited data

How the results depend on the processing

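Most results kept their direction under the alternatives, and 97 of 114 values stayed within an error or, for counts, moved by no more than 1.5 times. The error of a median was the SD between probe sets divided by the square root of the number of measured genes. It is therefore smaller than that SD, and it treats the genes of a list as independent. With no limit on signal, the median log2 ratio of the PERK-ATF4 targets turned to 0.26 in the parental pair, and was -0.36 in the overexpression pair and -0.0225 in the knockdown pair. A limit of 500 left 1 gene of that list in the last pair (-0.0225) and no member over 2-fold lower (0), since CHAC1 was then not measured. With no limit, members over 2-fold lower in the parental pair numbered 6 in place of 4, and 1 member (ERN1, all arrays dim) was over 2-fold higher on J3T-1 than on J3T-1shA.

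With the median of the probe sets, the chaperone median in the parental pair was -0.60, 0 members were over 2-fold higher there, 0 were over 2-fold lower in the overexpression pair, and 2 of 5 amino acid synthesis genes had both arrays of the J3T-1 line above both of the J3T-2 line. A pseudocount of 80 also left 0 members over 2-fold lower in the overexpression pair. At 1.5-fold, members higher and lower numbered 1 and 3 in the overexpression pair, 1 and 4 in the knockdown pair, and 2 and 9 in the parental pair. The counts by order of the arrays were chosen after seeing the data. No paired analysis was possible because each group has 1 array, and no replicate could be left out. The cause of these changes was not tested where not given.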
